A study of Mus musculus with 32 samples.

Results

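The comparison set microglia at a cortical stab wound 4 days after injury against microglia at the wound 1 day after injury, by expression at the wound itself. Its members were the 8 wound samples of days 1 and 4 among the 32 samples of the series, taken by their labels of side and day. All mice were C57BL/6 adults, heterozygous for Cx3cr1CreER, in which a recombinase switched on by tamoxifen sits at the fractalkine receptor gene. They received tamoxifen at 180 mg/kg on 5 consecutive days at 8 to 10 weeks of age, which labels microglia with a yellow fluorescent protein (EYFP), and were then wounded. Labelled cells were sorted from the cortex at the wound or from the other, non-injured hemisphere in both sexes on days 1, 4, 7 and 14. The 4 groups compared were wound cells of day 1 females, day 1 males, day 4 females and day 4 males, all of which carried the same allele and received the same tamoxifen and wound. The Cx3cr1 gene that drives the recombinase is also active in border-associated macrophages and in blood monocytes, so the label is not limited to microglia.

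Microglia are the resident macrophages of the brain. In the first day at a wound they put out processes toward the damage and secrete chemokines and cytokines, and over the following days they divide, take up myelin and cell debris, and break it down in lysosomes. Taking up debris brings in lipid, which is carried by fatty acid binding proteins and exported on apolipoproteins.

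Each group was deposited as 2 columns. They differed by little more than counting noise: the median chi-square per gene between them was 0.475 to 0.599 in the 4 wound groups, where counting noise gives 0.455, against 43.9 to 47.4 between the sexes of a day. The 2 columns were summed, which left 2 libraries a day, 1 per sex, holding 26276329 to 55378848 counts and 18836 to 32557 detected genes. The labels do not name the animals, so p-values measure the spread between libraries. In the main test that spread, and so each SE and p-value, came from the 8 wound libraries of all days. It did not come from the 4 libraries of days 1 and 4 alone. The 4 libraries matched their sex labels. The day 4 male library stood apart: 6.89% of its counts came from mitochondrial genes, against 0.697% to 1.71% in the other 3. Marker genes of neurons summed to 377 CPM there (a gene's share of its library's counts, scaled to a fixed total), against 26.2, 42.8 and 31.2 in the day 1 female, day 1 male and day 4 female libraries. Microglia markers such as P2ry12 and Tmem119 were present in all 4, and the 13 markers summed to 17880 and 13680 CPM at day 1 and to 37320 and 17330 CPM at day 4, females first. Cx3cr1 itself lay at 10.1, 15.9, 156 and 4.32 CPM in the same order of libraries as the neuron markers, with the day 4 male last. The female and male differences between the days were weakly alike. Across 8124 genes averaging 10 CPM or more, Pearson's r was 0.24 and Spearman's rho 0.10, and 51.4% of genes had the same sign, which is a description over genes of 4 libraries.

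Promoters of a pair of gene sets are printed here because many of their genes differed between the days in 1 direction: mitosis genes, with higher values at day 4, and genes of the amino acid response, with higher values at day 1. Each is the 250 bases before to 50 after the start of the gene in RefSeq on GRCm38.p6, written 5′ to 3′ on the gene's strand. The choice was among mitosis genes with both day 4 libraries above both day 1 libraries and a mean of at least 10 CPM. Some promoters are not reported here. A CHR element is TTTGAA or TTCGAA on either strand. Of genes reported, the 3 holding it with the largest difference were Ccnb2 (chr9:70421505-70421804, minus strand), Ube2c (chr2:164769679-164769978, plus strand) and Cenpa (chr5:30666636-30666935, plus strand). Capitals mark the matches.
Ccnb2: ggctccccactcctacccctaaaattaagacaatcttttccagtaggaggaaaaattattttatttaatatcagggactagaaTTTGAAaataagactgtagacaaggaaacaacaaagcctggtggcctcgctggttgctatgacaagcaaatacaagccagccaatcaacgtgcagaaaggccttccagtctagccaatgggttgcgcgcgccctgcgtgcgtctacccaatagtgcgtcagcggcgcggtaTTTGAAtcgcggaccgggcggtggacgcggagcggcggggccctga
Ube2c: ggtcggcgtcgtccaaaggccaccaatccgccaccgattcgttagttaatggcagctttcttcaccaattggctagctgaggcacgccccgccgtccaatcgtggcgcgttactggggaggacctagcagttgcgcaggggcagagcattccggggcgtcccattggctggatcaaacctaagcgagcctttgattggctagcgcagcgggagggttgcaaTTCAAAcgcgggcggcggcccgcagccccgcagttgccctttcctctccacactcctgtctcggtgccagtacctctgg
Cenpa: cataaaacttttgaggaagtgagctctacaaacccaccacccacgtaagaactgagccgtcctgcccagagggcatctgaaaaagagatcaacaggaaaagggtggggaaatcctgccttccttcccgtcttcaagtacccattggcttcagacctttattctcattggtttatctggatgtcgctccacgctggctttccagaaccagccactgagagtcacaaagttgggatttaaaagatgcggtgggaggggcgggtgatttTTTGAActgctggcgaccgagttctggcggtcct
The CHR element is known as a site that restrains cell cycle genes outside the late phases of the cycle. It was in 24 of 30 promoters of the mitosis list (80%, 28 of its 34 genes matched), against 19.2% of all 32851 promoters of that length, and in 16.7% of promoters of the DNA replication list. The E2F site, GCGGGAA or GCGCGAAA on either strand, went the other way. It was in 52.8% of the replication promoters and in 3.33% of the mitosis promoters, against 4.89% of all. Lists for both phases of the cycle thus carried different letters, a trait of the lists that does not depend on the values measured here. Of the mitosis genes with a promoter, 21 had both day 4 libraries above both day 1 libraries. The CHR element was in 16 of those 21, and in 22 of all 28.

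Amino acid genes were chosen in the same way, among those with both day 4 libraries below both day 1 libraries. Their letters were TGATGNAA on either strand, the composite site bound by ATF4. The 3 were Trib3 (chr2:152344011-152344310, minus strand), Slc7a11 (chr3:50443564-50443863, minus strand) and Asns (chr6:7693160-7693459, minus strand). Capitals again mark the matches.
Trib3: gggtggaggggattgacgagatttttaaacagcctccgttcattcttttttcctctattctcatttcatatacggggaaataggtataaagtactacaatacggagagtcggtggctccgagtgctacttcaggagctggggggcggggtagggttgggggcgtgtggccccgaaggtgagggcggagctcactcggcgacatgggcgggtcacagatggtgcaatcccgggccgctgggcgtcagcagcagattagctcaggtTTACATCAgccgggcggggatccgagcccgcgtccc
Slc7a11: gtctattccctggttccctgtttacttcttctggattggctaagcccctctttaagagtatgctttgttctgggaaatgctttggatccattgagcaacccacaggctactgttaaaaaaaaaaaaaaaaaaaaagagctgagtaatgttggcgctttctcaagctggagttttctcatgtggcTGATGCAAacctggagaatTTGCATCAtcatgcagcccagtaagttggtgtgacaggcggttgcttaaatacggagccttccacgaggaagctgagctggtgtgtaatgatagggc
Asns: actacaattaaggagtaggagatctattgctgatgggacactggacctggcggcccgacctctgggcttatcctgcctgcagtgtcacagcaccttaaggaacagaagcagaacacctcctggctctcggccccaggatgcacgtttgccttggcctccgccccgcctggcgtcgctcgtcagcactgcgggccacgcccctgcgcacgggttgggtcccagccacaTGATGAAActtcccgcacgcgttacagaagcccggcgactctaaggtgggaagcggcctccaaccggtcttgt
Those letters were in 11 of 29 promoters of the amino acid and integrated stress response list (37.9%, 25 of its 32 genes matched), against 3.97% of all promoters. They were in 3.7% of the promoters of the chaperone list. This motif was chosen after the values were seen. A match of letters is a description and no sign that a factor was bound.

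Of 22040 genes 6 rose from day 1 to day 4 by edgeR's quasi-likelihood test at an adjusted p under 0.05, and 0 fell. That is 0.0272% of the genes tested. At an unadjusted p under 0.05 there were 531 higher (2.41%) and 173 lower (0.785%) at day 4. Counts were also simulated with a spread taken from the wound libraries and shared by genes of like level, unlike that of single genes. In them the test recovered 1 of 50 genes changed 4-fold, 33 of 50 changed 16-fold and 49 of 50 changed 64-fold. It made 4 false calls among unchanged genes. DESeq2 called 155 of the same genes and a fit of the 4 libraries alone 206, all 6 among them in both. The fit of 4 libraries had 1 residual degree of freedom and gave genes of like level a shared spread. Its count is therefore not on the same footing as that of the main test. A fit of all 16 libraries of both sides called Hacd4 alone, with adjusted p = 0.722 for Cd5l, 0.956 for Apoc1 and 1 for Hpse, Fabp7 and Gm12918 by edgeR.

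The genes that rose encode a scavenger protein, an apolipoprotein, a fatty acid binding protein, an enzyme of fatty acid synthesis and a matrix enzyme, besides 1 pseudogene. Cd5l encodes a secreted scavenger receptor protein of macrophages that binds lipids. It had 5.85 CPM in the day 1 female and 1.86 in the day 1 male library, and 329 and 205 in the day 4 female and male libraries. Its log2 change was 6.18 ± 0.83 (SE, adjusted p = 0.0122 by edgeR), at chr3:87357881-87371073 on GRCm38. In the non-injured hemisphere the 4 libraries of the same days lay at 4.29 CPM or below.

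Hpse encodes heparanase, the enzyme that cuts the heparan sulfate chains of the matrix. Its values were 1.06 and 1.04 CPM at day 1 and 40.1 and 70.3 at day 4, females first, a log2 change of 5.64 ± 0.78 (SE, adjusted p = 0.0122 by edgeR). With limma on log2(TPM + 1) the adjusted p of Hpse was 0.183. Hacd4, an enzyme of very long chain fatty acid synthesis, had 3.79 and 1.76 CPM at day 1 against 123 and 96.4 at day 4 (log2 change 5.38 ± 0.74, adjusted p = 0.0122 by edgeR). Without the day 1 male library the adjusted p of Hacd4 by edgeR was 0.0695. On the non-injured side Hacd4 lay between 14.7 and 53.5 CPM in all 4 libraries of these days, above both day 1 wound libraries. Its day 1 wound values were therefore below those of the non-injured side, a difference that was not tested here.

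Apoc1 encodes a small apolipoprotein made by lipid-laden macrophages. It had 0 counts in the day 1 female and 9 in the day 1 male library, and 718 and 1212 counts at day 4, or 13.4 and 35.7 CPM (adjusted p = 0.0208 by edgeR). Every called gene was higher at day 4 in both sexes, which the naming rule asked of all but Gm12918.

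Fabp7, a fatty acid binding protein of astrocytes and glial precursors, had 0.223 and 0.298 CPM at day 1 and 10.3 and 142 at day 4 (adjusted p = 0.0265 by edgeR). Its high library is the day 4 male one, in which the 11 astrocyte markers summed to 927 CPM, against 184 to 376 in the other 3, with Gfap at 454 CPM against 51.2, 81.7 and 176. The day 4 male library of the non-injured side also had 105 CPM of Fabp7, with 0.968 or less in the other 3, and 8102 CPM of astrocyte markers. The part of those markers in the result was not tested. Without the day 4 male library Fabp7 was not called (adjusted p = 0.38 by edgeR). The remaining gene, the processed pseudogene Gm12918, had 0 counts in both day 1 libraries and 14.1 and 22.6 CPM at day 4. Against a floor of 3 counts per library this is at least 232-fold higher. It lies outside the naming rule, and reads of such a pseudogene can come from its parent gene. Away from the wound it had 13.3 and 17.5 CPM in the female libraries of days 1 and 4 and 0 in the males, so its level moved by library on that side too.

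**Figure D1:**
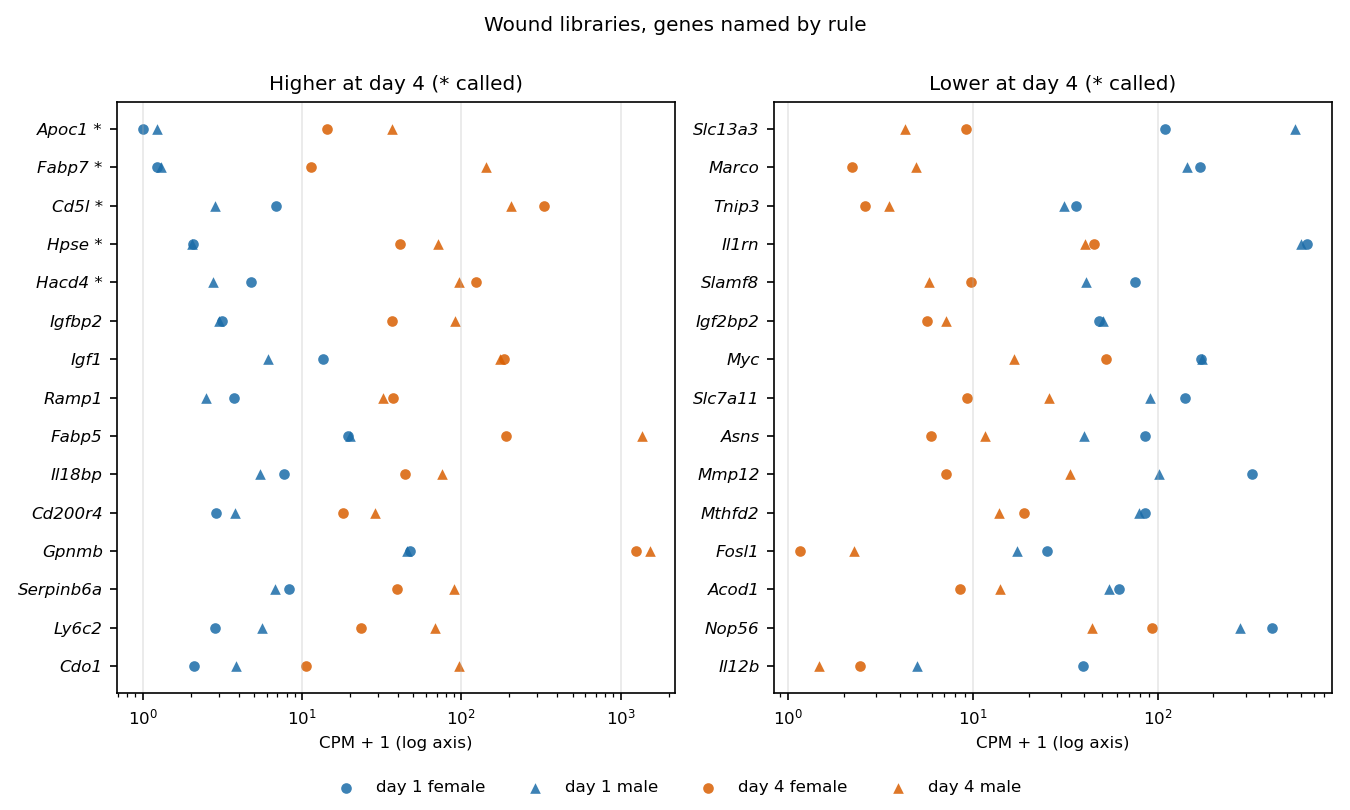
CPM plus 1 (log axis) of the 30 genes named by rule in each of the 4 wound libraries, with blue for day 1, orange for day 4, circles for females and triangles for males. The 5 starred genes were called, and in every row both libraries of a day lie to one side of both of the other, because the rule asked for it.

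The rule also took the 10 next genes of higher value at day 4, none of which was called. Igf1, the insulin-like growth factor that microglia supply to neurons and oligodendrocytes, had 12.5 and 5.16 CPM at day 1 and 183 and 173 at day 4 (log2 difference 4.48 ± 0.84 SE, adjusted p = 0.13 by edgeR). Gpnmb, a membrane glycoprotein of phagocytes with loaded lysosomes, had 46.4 and 44.9 CPM at day 1 and 1257 and 1523 at day 4 (4.90 ± 1.10 SE, adjusted p = 0.35). The rule asked for a gap between the days, so that gap is no support for either gene. Fabp5, a carrier of fatty acids, had 18.4 and 19 CPM at day 1 and 191 and 1369 at day 4. Igfbp2, which binds insulin-like growth factors, lay at 2.15 and 2.03 CPM and then at 35.6 and 89.7. It is also among the 10 fibroblast markers, which summed to 30.2 and 11.9 CPM at day 1 and to 77.7 and 522 at day 4. Il18bp, the decoy that neutralises interleukin 18, lay at 6.69 and 4.44 CPM and then at 43 and 74.3. The other 5 were Ramp1, Cd200r4, Serpinb6a, Ly6c2 and Cdo1, all with gaps of over 2-fold between the days. As for Fabp7, the day 4 male library of the non-injured side, with its astrocyte and neuron markers, was also high for Fabp5 (194 CPM against 2.67 to 5.71 in the other 3), Igfbp2 (173 against 5.55 to 13.2), Cdo1 (35.6 against 0.695 to 2.28) and Ramp1 (202 against 16.6 to 44.9). The part of those markers, or of the fibroblast markers, was not tested.

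No gene fell by the test, yet 15 genes were named by rule for lower values at day 4, with log2 differences from -6.44 to -2.41. Marco, a scavenger receptor for bacteria and particles, had 168 and 144 CPM at day 1 and 1.21 and 3.88 at day 4 (-6.44 ± 1.14 SE, adjusted p = 0.0943 by edgeR). Slc13a3, a transporter of dicarboxylates such as succinate, had 109 and 553 CPM at day 1 and 8.19 and 3.27 at day 4 (-6.16 ± 1.04 SE, adjusted p = 0.0658). Both came nearest to being called. Il1rn, which encodes the antagonist of the interleukin 1 receptor, had 641 and 596 CPM at day 1 and 44 and 39.3 at day 4. On the non-injured side Il1rn lay at 5.23 CPM or below and Marco at 2.66 or below in the 4 libraries of these days.

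Others of the 15 have various roles. Acod1, whose enzyme makes itaconate, had 60.5 and 53.6 CPM at day 1 and 7.5 and 13 at day 4, and Slc13a3 is known to take up the same class of acids. Tnip3, an inhibitor of NF-kB signalling, had 35.3 and 30 CPM and then 1.6 and 2.5. Fosl1, a subunit of the AP-1 factor, had 24.2 and 16.2 CPM and then 0.149 and 1.27. Asns, Mthfd2 and Slc7a11 belong to the amino acid list, Myc and Nop56 to ribosome biogenesis, and Mmp12 to the matrix proteases, all described below. The rest were Slamf8, Igf2bp2 and Il12b. Myc away from the wound also lay at 205 and 129 CPM on day 1 and at 69.3 and 17.5 on day 4.

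Since calls were so few, groups of genes are described by counting members whose 2 day 4 libraries both lay above, or both below, the 2 day 1 libraries. Over all 22040 genes 16.2% lay above in this way and 13.4% below. With a gap of at least 2-fold between the nearest libraries, on log2(CPM + 1), 1.79% lay above and 0.771% below. The median log2 difference of most lists is given beside these counts, where that of all genes tested was 0.05. On the deposited TPM values the median of all genes was -0.30, and 9.11% of genes lay above and 23.5% below, so lower counts are easier to reach on that scale. Without the day 4 male library 29.7% lay above and 23% below, since 1 library must then lie apart in place of 2.

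**Figure D2:**
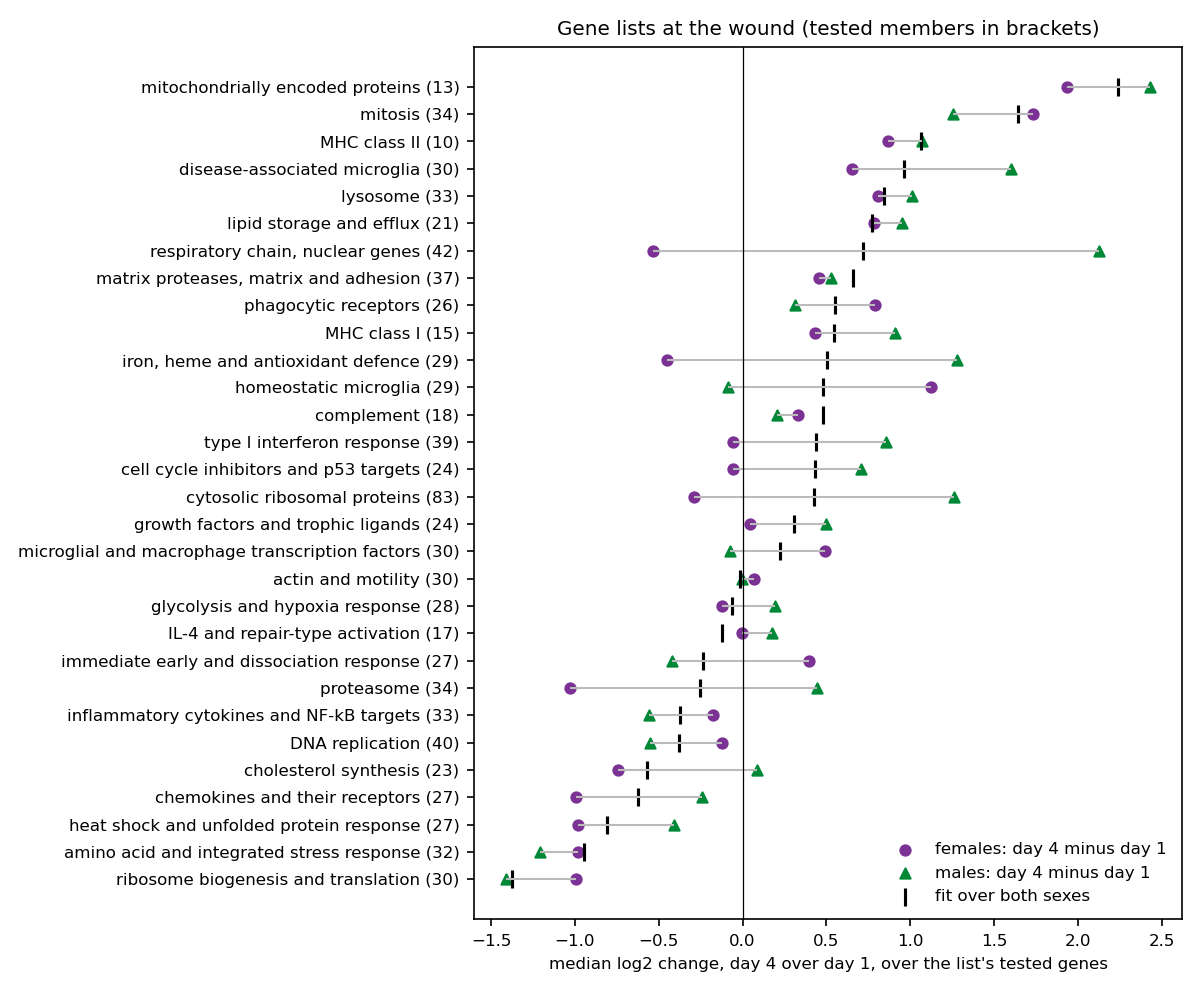
Median log2 difference of day 4 over day 1 for 30 gene lists, with circles for the female difference, triangles for the male difference and bars for the fit over both. Lists to the right in both sexes include mitochondrially encoded, mitosis, MHC class II, disease-associated, lysosome and lipid genes. Those to the left in both include ribosome biogenesis, amino acid response and chaperone genes. The mitochondrially encoded protein genes have the highest median, 2.24 (females 1.93, males 2.43), with 8 of 13 above, 0 below and 0 called. Their median was 1.03 without the day 4 male library and 3.01 on the non-injured side.

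Genes of mitosis had higher values at day 4. In 25 of 34 members both day 4 libraries lay above both day 1 libraries, in 0 below, and 7 of the 25 had a gap of at least 2-fold. The median log2 difference was 1.64, with 1.73 in females and 1.3 in males, and 0 members were called. On TPM 15 of 34 lay above and 0 below, and without the day 4 male library 34 of 34 lay above. Without the day 4 female library the median was 0.37.

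Ccna2 encodes cyclin A2, needed for entry into mitosis, and had 8.61 and 3.27 CPM at day 1 and 66.1 and 63.5 at day 4 (log2 difference 3.42 ± 0.94 SE, adjusted p = 0.65 by edgeR). Ccnb2, a cyclin B, had 7.05 and 1.41 CPM and then 62 and 26.9. Ube2c, which marks cyclins for destruction, had 9.45 and 2.36 CPM and then 38.8 and 39.9. The day 1 female library was above the day 1 male in each of these. Top2a, the topoisomerase that untangles chromosomes and the member with the highest mean CPM, overlapped between the days, with 31.4 and 14.7 CPM and then 99.9 and 30.9. Birc5, Cenpa, Cdc20 and Ccnb1 gave the same order, and Mki67, the common marker of dividing cells, had 22.8 and 9.77 CPM at day 1 and 54.3 and 24.7 at day 4. On the non-injured side the mitosis list had a median of 0.21, and 3 of 34 members lay above and 0 below, where 13.1% of all genes lay above and 8.77% below.

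DNA replication genes did not share that direction. Of 40 members 3 lay above and 7 below, with a median of -0.38 (females -0.12, males -0.55), and 0 were called. Mcm3, a subunit of the replicative helicase, had 179 and 150 CPM at day 1 and 191 and 31.4 at day 4. Mcm6 lay at 200 and 112 CPM and then at 158 and 91.4. The libraries of both days overlapped for Mcm3 and Mcm6. Tk1, E2f1 and Dut were the 3 members above, with Tk1, thymidine kinase, at 14.5 and 8.78 CPM and then 47.6 and 24.9. On TPM 17 lay below and 2 above. At the non-injured side 23 of 40 lay below on day 4, with a median of -0.95. Without the day 4 male wound library the median was 0.02, with 12 above and 9 below.

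**Figure D3:**
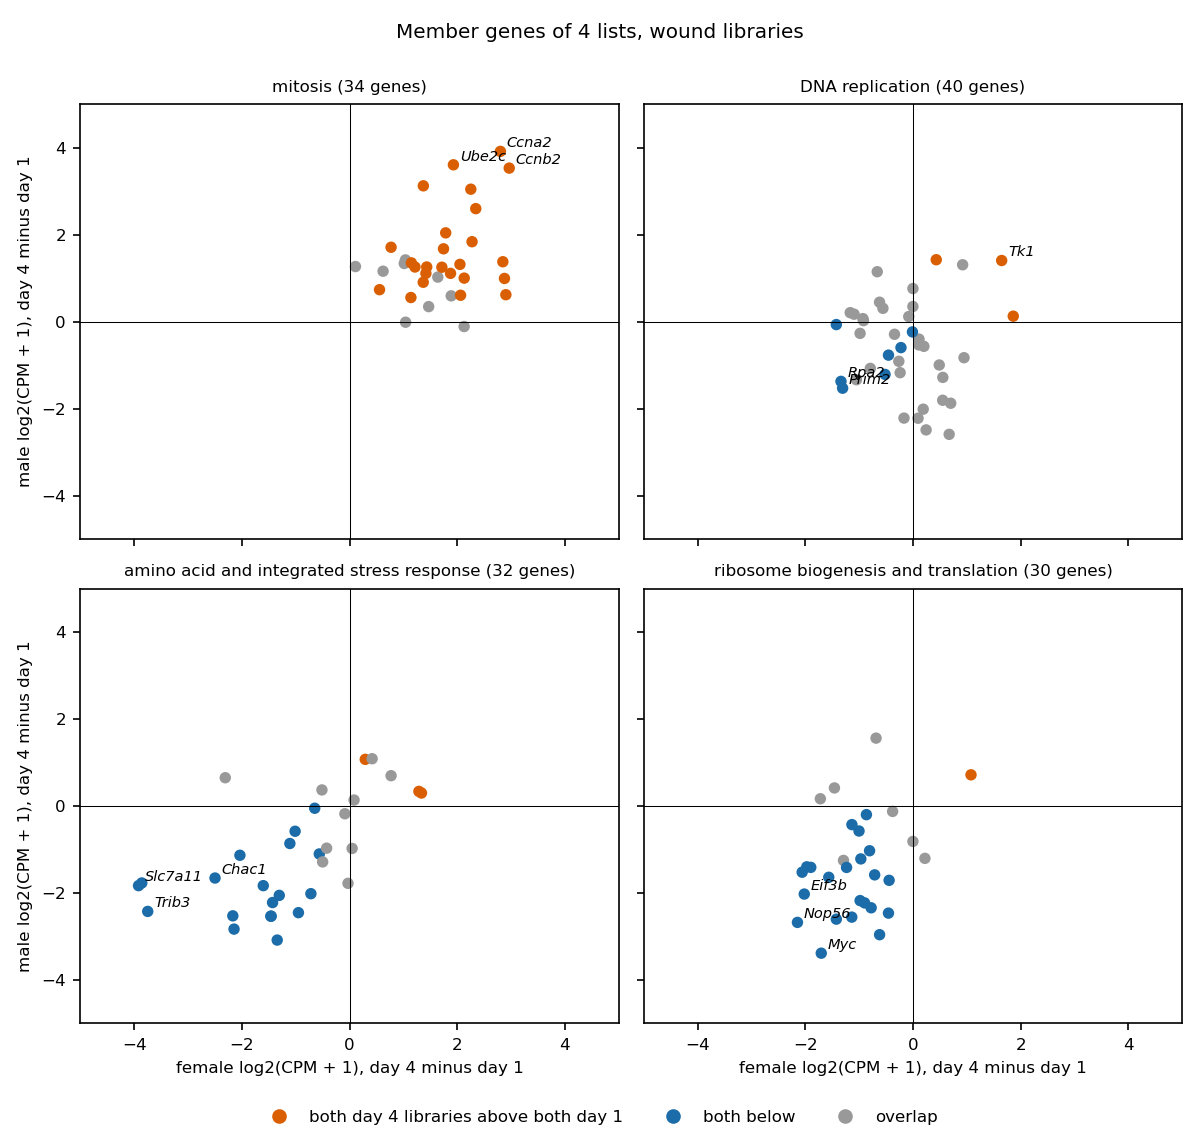
Day 4 minus day 1 on log2(CPM + 1) in females (horizontal) and males (vertical) for each member of 4 lists, orange where both day 4 libraries lie above both day 1 libraries, blue where both lie below and grey where they overlap. Nearly all mitosis genes sit at the upper right, the replication genes around the centre, and most genes of the lower panels in the lower left.

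Genes of ribosome biogenesis and translation had the lowest median of the 30 lists. Of 30 members 22 lay below at day 4 and 1 above, with a median of -1.38 (females -0.99, males -1.41). Of these 5 lay below by at least 2-fold and 0 were called. Nop56, a core protein of the box C/D particles that modify ribosomal RNA, had 413 and 279 CPM at day 1 and 92.6 and 42.9 at day 4 (-2.41 ± 0.67 SE, adjusted p = 0.68 by edgeR). Eif4a1, the helicase of translation initiation, had 1379 and 756 CPM and then 330 and 263. Eif5a, another translation factor and 1 of the 2 members with the highest mean CPM, had 1351 and 837 CPM and then 674 and 563. Ncl, nucleolin, had 322 and 414 CPM and then 196 and 138. Myc, the factor known to drive this gene group, lay at 170 and 172 CPM and then at 51.6 and 15.6. Eef1a1 was the exception, at 1302 and 1326 CPM and then 2751 and 2186. The genes of the ribosomal proteins themselves did not share the direction: 22 of 83 lay above and 4 below, on TPM 4 above and 17 below, and without the day 4 male library 23 above and 23 below. The ribosomal protein genes had a median of 0.42. Away from the wound 9 of the 30 biogenesis genes lay below and 2 above, with a median of -0.46.

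Genes of amino acid supply and of the integrated stress response, which is run by the factor ATF4, formed the next group. Of 32 members 19 lay below at day 4 and 3 above, 9 of the 19 by at least 2-fold, with a median of -0.95 (females -0.98, males -1.21). Of the 32, 0 were called. Asns, asparagine synthetase, had 84.6 and 38.8 CPM at day 1 and 4.89 and 10.7 at day 4 (-2.95 ± 0.79 SE, adjusted p = 0.57 by edgeR). Slc7a11, the cystine and glutamate exchanger, had 139 and 90.2 CPM and then 8.27 and 24.7. Trib3, a pseudokinase made under stress, had 29 and 22.5 CPM and then 1.23 and 3.38. Asns, Slc7a11 and Trib3 were taken because both day 4 libraries lay below both day 1 libraries. The 2 members with the highest mean CPM had smaller gaps, with Slc3a2, the shared chain of amino acid exchangers, at 1672 and 1103 CPM and then 775 and 607, and Nars, which charges asparagine transfer RNA, at 888 and 247 and then 216 and 112. Atf4 itself had 81.1 and 123 CPM and then 54.6 and 56.9. The enzymes that charge transfer RNAs were among them, with Cars at 110 and 83.6 CPM and then 39.4 and 13.6, and Tars at 230 and 101 and then 75 and 27.8. Mthfd2 and Shmt2, of the mitochondrial folate cycle, lay at 84.3 and 78.4 CPM and then 18 and 12.8, and at 166 and 181 and then 64.8 and 20.5. Atf3 lay on the other side, with 171 and 198 CPM and then 435 and 244. Away from the wound the list's median was -0.10, and 6 of its members lay below.

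Chaperone and unfolded protein response genes lay below in 16 of 27 cases and above in 0, with a median of -0.81 (females -0.98, males -0.41) and 0 called. Hspa5, the main chaperone of the endoplasmic reticulum, had 4915 and 2645 CPM at day 1 and 1680 and 1193 at day 4. Hspa8, its relative in the cytosol, had 4475 and 2856 CPM and then 2274 and 1440. Herpud1, a part of the degradation machinery of that compartment, had 884 and 248 CPM and then 221 and 99.7. None of the 16 had a gap of 2-fold between the nearest libraries. Without the day 1 female library the median was -0.35, and without the day 4 male library 24 lay below. At the non-injured side 6 of 27 lay below and 2 above, with a median of -0.48.

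Chemokines were high at day 1, most of all in the female library. Of 27 chemokine and receptor genes 13 lay below at day 4 and 2 above, with a median of -0.62 (females -0.99, males -0.25) and 0 called. Ccl12, an attractant of monocytes, had 3378 and 1075 CPM at day 1 and 146 and 514 at day 4 (-2.60 ± 1.00 SE). Ccl4, another member of high mean CPM, had 1279 and 1129 CPM and then 473 and 935. Ccl7 had 1247 and 401 CPM and then 22 and 189. Ccl2 had 1055 and 761 CPM and then 128 and 662, so its male libraries lay close together. Without the day 1 female library the median of the list turned to 0.13, and without the day 4 female library it was -0.08. On the non-injured side 5 members lay below and 2 above, with a median of -0.999, lower than at the wound.

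Among inflammatory cytokines and targets of NF-kB, 11 of 33 lay below and 3 above, with a median of -0.38 and 0 called. Ptgs2, the inducible cyclooxygenase, had 272 and 253 CPM at day 1 and 86.7 and 10 at day 4. Nfkbia, the inhibitor that NF-kB induces and the member with the highest mean CPM, overlapped at 919 and 532 CPM and then 584 and 430. Tnf had 352 and 300 CPM and then 200 and 130. Il1b overlapped between the days, with 89.3 and 63.2 CPM and then 76.4 and 44.6. Among these 33 genes 9 lay below and 1 above on the other hemisphere, with a median of -0.88. Leaving out the day 4 male wound library put 12 above and 13 below.

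Disease-associated microglia genes, a set first defined in models of neurodegeneration, lay above at day 4 in 15 of 30 cases and below in 3. Of the 15, 12 lay above by at least 2-fold, with a median of 0.96 (females 0.65, males 1.60) and 0 called. Apoe, the main lipid carrier of the brain, had 822 and 185 CPM at day 1 and 38441 and 9846 at day 4 (log2 difference 5.61 ± 1.90 SE). Spp1, osteopontin, had 6950 and 1972 CPM and then 20765 and 34479. Cst7, an inhibitor of cathepsins, had 39.5 and 14.7 CPM and then 104 and 342. Axl, a receptor for dying cells, had 44.4 and 27 CPM and then 300.5 and 134. The 3 on the other side were Lilrb4a, Postn and Ch25h, whose enzyme makes an oxysterol, with Ch25h at 650 and 524 CPM and then 160 and 273. Trem2, the receptor tied to this state, had 421 and 261 CPM and then 1132 and 796.

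Lipid storage and efflux genes lay above in 11 of 21 cases and below in 1, 5 of the 11 by at least 2-fold, with a median of 0.77 (females 0.79, males 0.95). Apoc1 was the 1 called member. Apoc2, from the same gene cluster as Apoe and Apoc1, had 14.3 and 1.79 CPM at day 1 and 140 and 32 at day 4. Fabp3 had 3.2 and 1.02 CPM and then 19.3 and 74.4. Plin2, the coat protein of lipid droplets and a member of high mean CPM, overlapped at 1105 and 499.6 CPM and then 1130 and 1060. The efflux pumps did not share those gaps, with Abca1 at 522 and 420 CPM and then 1059 and 472, and Abcg1 at 1600 and 215 and then 860 and 411. Cholesterol synthesis genes lay below in 9 of 23 cases and above in 2, with a median of -0.57 and 0 called. Ebp and Srebf2, the members with the highest mean CPM, lay at 103 and 49.6 CPM and then 62.6 and 59.7, and at 47.6 and 57.7 and then 44.9 and 28. Without the day 1 female library the median of that list was 0.06.

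Lysosome genes lay above in 17 of 33 cases and below in 1, with a median of 0.84 (females 0.81, males 1.01), 5 above by at least 2-fold and 0 called. With the day 4 male library left out 26 lay above. Ctsd, the protease cathepsin D, had 5966 and 4926 CPM at day 1 and 47025 and 32115 at day 4 (2.86 ± 1.46 SE). Ctsb, cathepsin B, had 13945 and 7390 CPM and then 22241 and 15554, a much smaller gap. Scarb2, which carries an enzyme of lipid breakdown to lysosomes, had 79.6 and 75.4 CPM and then 285 and 396. Lipa, the acid lipase of the organelle, had 197 and 152 CPM and then 556 and 360. Ctsc, cathepsin C, was the 1 member below, with 5883 and 2273 CPM and then 2237 and 832. On the non-injured side the median was -0.36, and 1 member lay above and 0 below.

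Antigen presentation genes also lay to the day 4 side. Of the MHC class II list 4 of 10 lay above and 0 below, with a median of 1.06. H2-Eb1 had 36.5 and 10.7 CPM at day 1 and 282 and 147 at day 4 (3.28 ± 0.80 SE, adjusted p = 0.40 by edgeR), and H2-Aa had 49 and 12.4 and then 263 and 165. The 2 class II genes with the highest mean CPM overlapped between the days, with Cd74, the invariant chain, at 775 and 189 CPM and then 1076 and 420, and H2-Ab1 at 301 and 32.1 and then 576 and 217. Of the MHC class I list 7 of 15 lay above and 0 below, with a median of 0.55. B2m, the light chain of class I molecules, had 1386 and 1210 CPM and then 3944 and 11295, and H2-K1 had 503 and 281 and then 1529 and 1621. With the day 4 male library left out 9 of the class II and 11 of the class I genes lay above. No member of either list was called, 0 of 25 in all. Type I interferon response genes lay above in 7 of 39 cases and below in 0, close to the 16.2% of all genes, with a median of -0.06 in females and 0.86 in males. On TPM 3 lay above and 10 below, with a median of -0.07, and without the day 4 male library 19 lay above. Its members with the highest mean CPM, Bst2 and Ifit3, overlapped, with Bst2 at 275 and 155 CPM and then 246 and 722, and Ifit3 at 499.6 and 99.6 and then 147 and 150.

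Of 26 phagocytic receptors 10 lay above at day 4 and 3 below, the latter a share near that of all genes, with a median of 0.55. The median was -0.11 on TPM and 0.15 without the day 4 female library, and without the day 4 male library 16 lay above and 4 below. Those with the highest mean CPM, the antibody receptor Fcgr3 and the integrin Itgam, overlapped, with Fcgr3 at 2422 and 739 CPM and then 1466 and 1076, and Itgam at 768 and 901 and then 1736 and 275. Marco and Msr1, both scavenger receptors of one family, lay below, with Msr1 at 1494 and 978 CPM and then 232 and 445. Axl and its ligand Gas6 lay above, with Gas6 at 238 and 227 CPM and then 864 and 953. Of 18 complement genes 6 lay above and 3 below, with a median of 0.48 that was 0.04 without the day 4 female library. On TPM 3 lay above and 5 below, and without the day 4 male library 10 above and 4 below. The complement receptor C5ar1, which senses a fragment of C5, had 1843 and 1276 CPM and then 471 and 157, whereas C1qb, a chain of the first complement component, had 4590 and 3169 CPM and then 7898 and 5822, and C1qa had 2943 and 3156 and then 6784 and 5347. The complement genes C4b and Cfb also lay above, with Cfb at 15 and 4.94 CPM and then 66.7 and 46.5.

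Of the matrix genes 18 of 37 lay above and 8 below, 7 and 4 of them by at least 2-fold. The median was 0.66, 0 were called, and on TPM 11 lay above and 9 below. Mmp12, macrophage elastase, had 323 and 100 CPM at day 1 and 6.1 and 32.6 at day 4 (-3.69 ± 1.00 SE, adjusted p = 0.60 by edgeR). Adam8, a membrane protease, had 1286 and 1202 CPM and then 218 and 247. Mmp8, a collagenase, had 3.9 and 2.03 CPM and then 19.8 and 25.3. Fn1, fibronectin, had 140.5 and 125 CPM and then 1317 and 192, so its day 4 male library lay close to day 1.

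Heme and iron genes lay above in 9 of 29 cases and below in 4, and without the day 4 male library in 11 and 11. The median of this list was 0.50, and on TPM 6 lay above and 6 below. The ferritin chains, the members with the highest mean CPM, overlapped, with Ftl1 at 23365 and 7986 CPM and then 17157 and 29990, and Fth1 at 18366 and 7776 and then 6381 and 20985. Hmox1, which breaks down heme, had 680 and 491 CPM at day 1 and 1539 and 2566 at day 4, and Slc40a1, the iron exporter ferroportin, had 56.4 and 19.8 and then 188 and 202. The 7 erythrocyte markers summed to 163 and 148 CPM at day 1 and to 23 and 54.8 at day 4.

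Homeostatic microglia genes gave 6 of 29 above and 1 below. Their median was 0.48, with 1.12 in females and -0.09 in males, and turned to -0.02 without the day 4 female library. Leaving out the day 4 male library put 24 above, with a median of 1.05. Cst3, a member of high mean CPM, overlapped at 7300 and 2600 CPM and then 4184 and 3274. P2ry12, the receptor by which microglia sense nucleotides, had 212 and 150 CPM at day 1 and 792 and 255 at day 4. Siglech had 61.9 and 48.5 CPM and then 433 and 130. Tmem119 overlapped, with 1180 and 622 CPM and then 1494 and 466. Sall1, the factor of microglial identity, lay at 54.7 and 61 CPM and then 142 and 27, highest and lowest on the same day.

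Summed markers of other macrophages were higher at day 4 in both sexes. The 17 monocyte markers summed to 346 and 275 CPM at day 1 and to 1847 and 790 at day 4, with 9 above and 0 below. Of the 17, 0 were at 0 counts in any of the 4 libraries. Fn1, given above with the matrix genes, is among the 17 and made up most of the day 4 female sum. In females 64.7% of the markers were higher at day 4, and in males 88.2%. Ly6c2 had 1.84 and 4.59 CPM and then 22.5 and 67, and Ccr2, the receptor for Ccl2 and Ccl12, overlapped at 16.3 and 10.9 and then 58.4 and 15.6. The 13 border-associated macrophage markers summed to 691 and 670 CPM and then to 1760 and 1193, with 6 above and 0 below. Folr2 had 10.5 and 1.56 CPM and then 55.5 and 42.9, while Lyve1 stayed at 4.26 CPM or below in the 4. The part of these markers in the genes described above was not tested, and in bulk samples more cells of a type and more RNA per cell cannot be told apart. The neutrophil markers summed to 233 and 142 CPM at day 1 and to 414 and 292 at day 4. Of the 14 tested, however, 2 lay above and 2 below, with a median of -0.06 in females and 1.44 in males. On TPM their median was -0.02. The oligodendrocyte markers summed to 637 and 226.5 CPM and then to 529 and 2026, highest in the day 4 male library.

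**Figure D4:**
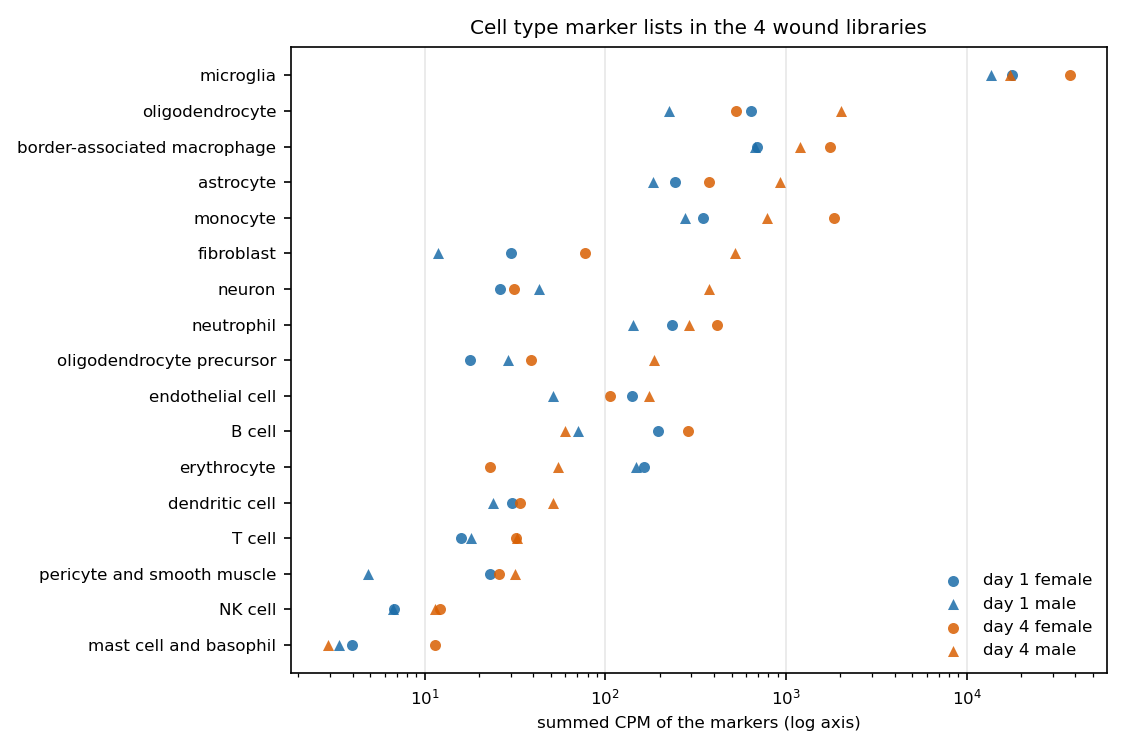
Summed CPM (log axis) of 17 lists of cell type markers in the 4 wound libraries, blue for day 1, orange for day 4, circles for females, triangles for males. Monocyte and border-associated macrophage markers are higher in both day 4 libraries, and neuron, oligodendrocyte, precursor and fibroblast markers are highest in the day 4 male library.

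In the non-injured hemisphere the same comparison of day 4 with day 1 gave 0 called genes of 24622 by edgeR, with 186 (0.755%) at an unadjusted p under 0.05. Of its 4 libraries the day 4 male one had 25.7% of counts from mitochondrial genes and 10830 CPM of neuron markers. The common dispersion, edgeR's measure of the spread between libraries, was 1.41 on the non-injured side against 0.858 at the wound. The 0 calls thus do not show that the days were alike there. The wound and non-injured changes were not tested against each other.

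**Figure D5:**
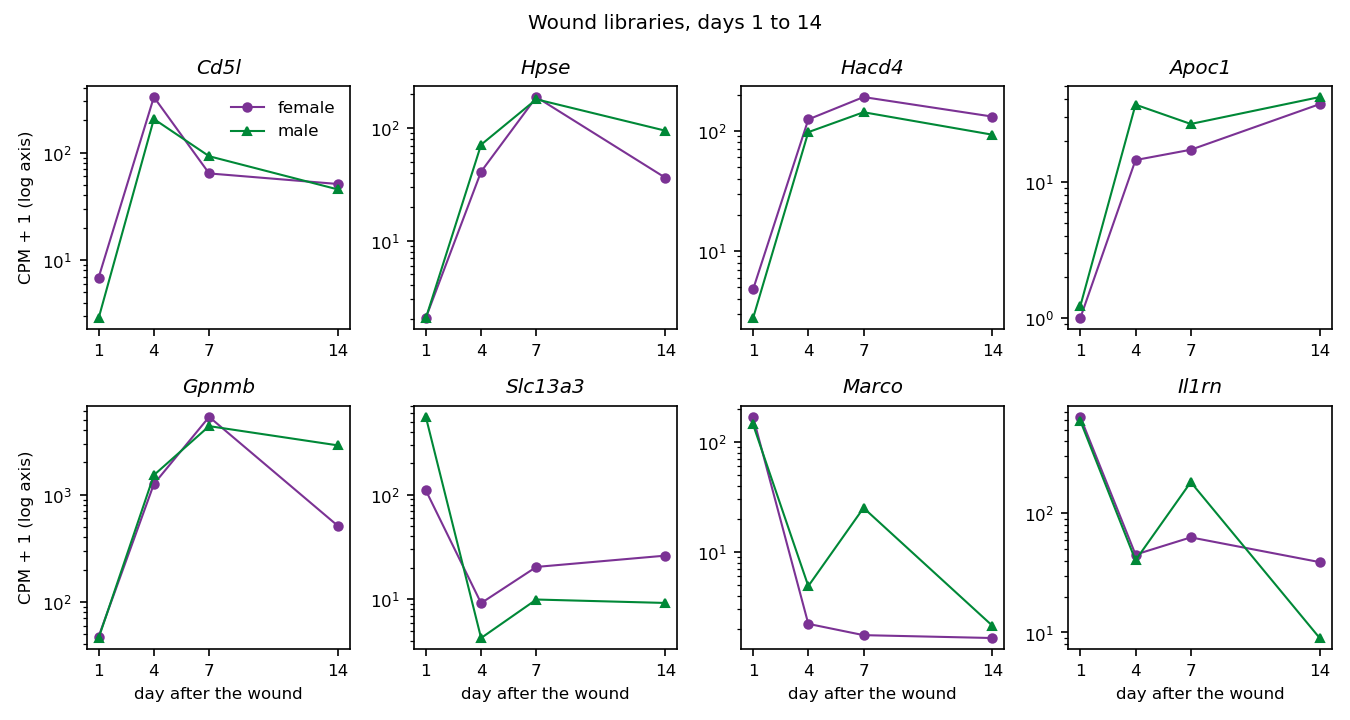
CPM plus 1 (log axis) of 8 genes at the wound on days 1, 4, 7 and 14, with circles for females and triangles for males, 1 library per point. Cd5l is highest on day 4 in both sexes, Hpse and Gpnmb on day 7, and Marco, Slc13a3 and Il1rn on day 1.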

How the data were processed

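Polyadenylated RNA of sorted cells was made into cDNA with SMART-Seq v4 and into libraries with Nextera XT, which do not keep the strand, per the labels' protocols. The authors deposited expected counts per gene for 55385 versioned Ensembl IDs, and TPM values. Salmon 1.0.0 and DESeq2 1.26.0 are named in the submitters' processing notes, and the annotation is not given in the sources used here. Symbols and coordinates came from GENCODE M21 on GRCm38, which held 54487 of the IDs. The 2 columns of each group were summed and rounded.

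The 8 wound libraries of all days were tested with edgeR 4.0.16 (R 4.3.3) by quasi-likelihood with TMM factors, day and sex, after filterByExpr at a minimum count of 10, and adjusted by Benjamini-Hochberg over 22040 genes, with a threshold of 0.05. There were 3 residual and 12.7 prior degrees of freedom. CPM values use TMM-scaled library sizes. The procedure was tested on simulated data. The members, gene lists and rules were chosen with earlier results of these data known. Named genes were protein-coding and no predicted model, at a mean of at least 10 CPM, with no overlap between the days, up to 15 a direction, called genes first by size and then by smallest p. Of each list without a called member the rule took the 2 with the highest mean CPM, and the other list members and the 2-fold gap were chosen after their values were seen. Some genes that the rule takes are not reported here. Equal replicate numbers in the 2 days deviated together with correlations of -0.0846 to 0.0844, so the numbers do not pair the columns. Promoters are from RefSeq on GRCm38.p6. Alternatives used limma 3.58.1 on log2(TPM + 1) and DESeq2 1.42.0, among others.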

Additional observations from a re-analysis of the deposited data

Results flagged for a closer look

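For 4 lists the female and the male median of day 4 minus day 1 lay on opposite sides by at least 0.5 on the log2 scale, relative to all genes. With 1 library per sex and day these differences were not tested. The median of the 42 nuclear genes of the respiratory chain was -0.54 in females and 2.12 in males, 2.66 apart. For 29 genes of iron, heme and antioxidant defence it was -0.45 and 1.28, 1.73 apart. For 34 proteasome genes it was -1.03 and 0.44, 1.47 apart. For the 11 oligodendrocyte markers it was -0.79 and 4.03, 4.81 apart. The male values use the day 4 male library, which had 6.89% mitochondrial counts, and the part of that library's make-up was not tested. Cox6c, of the last complex of the chain, had 49.8 and 22.8 CPM at day 1 and 47 and 211 at day 4.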

How the results depend on the processing

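The 6 called genes of the wound comparison became 206 with only the 4 libraries of days 1 and 4 fitted, 155 with DESeq2, 78 with no filter on low counts, 13 with limma on log2 TPM and 1 with all 16 libraries of both sides. Leaving out 1 library at a time gave 20 to 49 genes, with 20 without the day 1 female, 34 without the day 1 male, 49 without the day 4 female and 41 without the day 4 male library, where the lone library of a day is assumed to vary like the others. With no sex term there were 6 and with median-ratio factors 7. Treating the 2 columns of a group as separate samples gave 2211 genes, and 1622 with a replicate block, where the spread is that between columns of 1 library. The cause of the other differences was not tested. All 6 genes were called in 9 of the 13 alternatives. Those 9 include both fits of the columns as separate samples and fits with a lone library in a day. The alternatives also share their libraries, so the tally is no independent support. Hacd4 alone was called with all 16 libraries. Hpse was lost with limma on log2 TPM, Hacd4 without the day 1 male and Fabp7 without the day 4 male library. No log2 change of a named gene changed sign. All named genes had no overlap between the days, which largely fixes the sign, so this is no support. The count of 0 in the non-injured hemisphere was 0 to 5 with 1 library left out. Medians of the mitosis, lysosome, lipid, MHC class II, ribosome biogenesis, amino acid and chaperone lists kept their sign in every alternative. Without the day 4 male library the median of the respiratory chain list was -0.10. Each value rests on 1 library per sex and day, which limits the precision more than the depth does.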

Other observations

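The later values at the wound of the genes that rose by day 4 are as follows. Cd5l, which had 329 and 205 CPM at day 4 (females first), had 63 and 91.6 at day 7 and 50 and 44.4 at day 14. Hpse had 40.1 and 70.3 CPM at day 4, 188 and 180 at day 7 and 35.3 and 94 at day 14. Hacd4 went from 123 and 96.4 CPM to 190 and 142 and then to 130 and 91.7, and Apoc1 from 13.4 and 35.7 to 16.1 and 25.5 and then to 36 and 40.7. Fabp7 went from 10.3 and 142 CPM to 5.97 and 18.9 and then to 2.96 and 2.97, and the pseudogene Gm12918 from 14.1 and 22.6 to 13.9 and 50.9 and then to 5.91 and 29.3. Gpnmb, which was not called, had 1257 and 1523 CPM at day 4, 5325 and 4367 at day 7, and 509 and 2885 at day 14.

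Of the genes named for lower values at day 4, Acod1 had 25.8 and 70.4 CPM at day 7, its male library above both day 1 libraries, and 2.88 and 4.13 at day 14. Slc13a3 had 19.4 and 8.95 CPM at day 7 and 25.1 and 8.23 at day 14. Il1rn had 61.7 and 181 CPM at day 7 and 37.9 and 7.99 at day 14. Marco had 0.747 and 24.1 CPM at day 7, and 0.644 and 1.12 at day 14.

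Actb, the gene of beta-actin that is often used as a reference, had 73555 and 19888 CPM at day 1 and 14550 and 7682 at day 4. Gapdh had 1629 and 1425 CPM and then 2370 and 1973. The days did not overlap for either gene, and the differences had opposite signs.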
